A study of Spinacia oleracea with 24 samples.

Results

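The spinach genes of chlorophyll metabolism described here were followed over the day: GUN4 (Spo20278), CHLH (Spo00253) and NYC1 (Spo18805), chosen by their gene IDs, 3 of the 25494 genes in the deposited table. All 3 passed the filter on low values, as did 18110 genes in all. Leaves came from 48-day-old plants of Spinacia oleracea cultivar Space, a single variety, grown in a soil-free medium with 8 h of light per day. High nitrogen plants (HN) received 200 ppm and low nitrogen plants (LN) 50 ppm. Leaves were taken 4 times: as the night ended (T1, end of dark), halfway through the light (T2), as the light ended (T3) and halfway through the night (T4, middle of dark). Each of the 8 groups held 3 plants, which gives 24 libraries, and no group went without added nitrogen. The labels call the plants independent, and the tests treat all libraries so; the sources used here do not give whether 1 plant gave leaves at more than 1 time.

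Chlorophyll is built in the chloroplast from protoporphyrin IX. Magnesium chelatase, made of the subunits CHLH, CHLI and CHLD, inserts the magnesium ion, and CHLH is the large subunit that binds the porphyrin. GUN4, named after Arabidopsis mutants with disturbed plastid-to-nucleus signalling, binds porphyrins and stimulates the chelatase. NYC1 acts at the other end of the pigment's life: it is a chlorophyll b reductase, which starts the conversion of chlorophyll b back to chlorophyll a and so opens the breakdown of chlorophyll b and its antenna complexes. Its name comes from a rice mutant that stays green.

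GUN4 and NYC1 both changed strongly over the day, with their highest means at different times. GUN4 was highest in the middle of the light period and lowest in the middle of the dark period at both nitrogen levels, with group means that spanned 8.17-fold in HN and 10.1-fold in LN. NYC1 was highest at the end of the light period and lowest at the end of the dark period, spanning 9.70-fold in HN and 5.09-fold in LN. The CHLH model Spo00253 was low throughout and spanned 1.36-fold in HN and 1.89-fold in LN. Another, longer gene model that carries the same CHLH name, Spo20716, was far more abundant and had its highest mean in the middle of light and its lowest in the middle of dark, as GUN4 did.

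The gene models differ in what they measure. Spo20278 is the single model named GUN4. It lies on scaffold SpoScf_00665 from 29259 to 32702 on the plus strand of the Sp75 genome, with a listed length of 1131 bases and a GUN4-like domain. It averaged 131 FPKM over the 24 libraries and received 351 to 7419 fragments per library. FPKM here are fragments per kilobase of gene length, scaled by a size factor for each library. Spo18805 lies on scaffold SpoScf_00418 from 346662 to 352592 on the plus strand, with a length of 2255 bases and a short chain dehydrogenase domain. It averaged 62.8 FPKM on 571 to 8420 fragments. The other model named NYC1, Spo11209 on chromosome 6, received 4 fragments over all 24 libraries.

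The name CHLH is carried by 3 models, and Spo00253 is not the most abundant of them. Spo00253 lies on scaffold SpoScf_01219 from 7800 to 42192 on the plus strand, where it is the single gene listed. Its listed length is 951 bases spread over a span of 34393 bases, and its annotation holds the CobN/magnesium chelatase domain alone. It averaged 9.71 FPKM on 88 to 460 fragments per library, for which the counting error alone reaches 10.7% in the library with the fewest fragments. Spo20716 lies on chromosome 3 from 99725083 to 99730715 on the minus strand, has a listed length of 4152 bases and holds that domain together with the DUF3479 domain. It averaged 520 FPKM on 6546 to 87725 fragments. The third model, Spo00039 on chromosome 3, did not pass the filter, with 38 fragments over the 24 libraries.

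Per kilobase, Spo20716 stood 6.35 to 155 times above Spo00253 in the same library, with a median of 52.1. Of all fragments on the 3 CHLH models, 0.445% fell on Spo00253, and between 0.147% and 3.48% in single libraries. Since no source used here gives the handling of reads that match more than 1 similar model, the level of Spo00253 is uncertain, and values named CHLH below are given for each model separately. The 3 genes share no neighbourhood. Spo20278 is flanked by Spo20277, named SPRING, at a distance of 3584 bases and with a mean of 5.32 FPKM, and Spo18805 by Spo18813, a Rubisco activase (Rca) model on the other strand, 37885 bases away with a mean of 20.2 FPKM. No neighbouring model overlapped Spo20278 or Spo18805.

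The libraries held 18369094 to 25252705 fragments assigned to genes. The leaf label was checked against marker genes. The 25 models of mesophyll markers (Rubisco small subunits, Rubisco activase, antenna proteins and the oxygen-evolving enhancer) summed to 17155 to 119586 FPKM per library, against 88.3 to 135 FPKM for guard cell markers, 41.9 to 135 for epidermis, 9.90 to 45.7 for xylem, 0.431 to 13.4 for phloem and at most 1.50 for dividing cells. The other sums rest on 7 guard cell, 8 epidermis, 4 xylem and 5 phloem models, and on 1 model for dividing cells (KNOLLE, Spo22270). Sums of different classes are therefore not alike in weight. The mesophyll sum was lowest in replicate 3 of LN at T4. The libraries farthest from their group means over all tested genes were replicate 3 of LN at T3, replicate 3 of LN at T4 and replicate 2 of LN at T1, with root mean square deviations of 0.524, 0.489 and 0.470 on the log2 scale. The smallest deviation was 0.226. Results of the LN groups are therefore given also without a library where that moves a call. Marker sums also differed between times of day. In HN the epidermis median was 45.2 FPKM at T1 and 101 at T2, and the xylem median 45.7 and 16.8. In leaf RNA of this kind, fewer cells of a type, less RNA per cell and changed marker transcripts cannot be told apart.

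**Figure D1:**
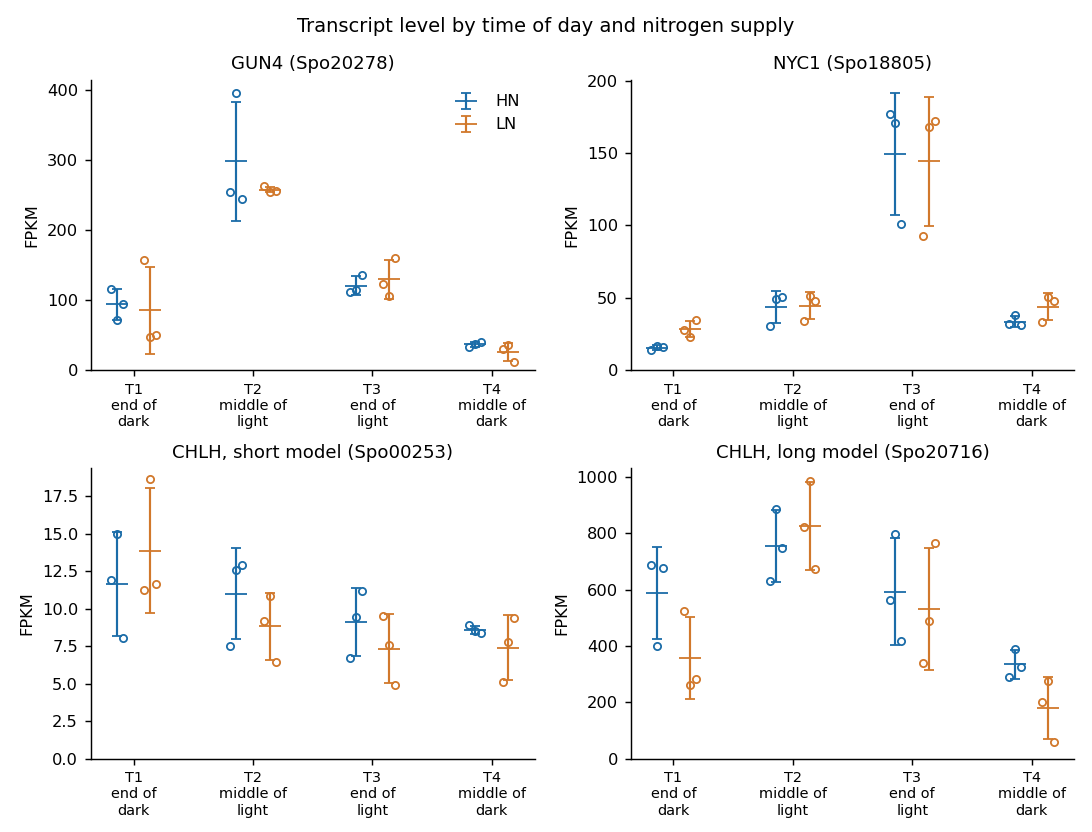
FPKM in each library (open circles) with the group mean (horizontal bar) and SD (vertical bar, n = 3) by time of day, for HN in blue and LN in orange. GUN4 was highest at T2, with all 6 libraries between 243 and 395 FPKM; NYC1 was highest at T3, with all 6 between 92.8 and 177; Spo00253 stayed between 4.93 and 18.7, and Spo20716 ranged from 59.4 to 983.

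GUN4 in HN stood at 115, 70.8 and 94.7 FPKM in the 3 libraries of T1, at 255, 395 and 243 at T2, at 112, 114 and 136 at T3, and at 32.1, 37.3 and 39.9 at T4. The T2 libraries lay above and the T4 libraries below all others, while T1 and T3 overlapped. In means this is 298 ± 84.5 (SD, n = 3) in the middle of light against 36.4 ± 4.01 in the middle of dark. On the log2(FPKM + 1) scale, on which all changes below are given, GUN4 rose by 2.97 (SE 0.38, limma adjusted p = 3.47e-05) from T4 to T2, where 12.5% of all tested genes were called higher and 11.1% lower.

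GUN4 in LN stood at 157, 47.6 and 50.3 FPKM at T1, at 262, 255 and 255 at T2, at 123, 105 and 159 at T3, and at 29.6, 35.2 and 11.7 at T4. Again the T2 libraries were the highest and the T4 libraries the lowest, with no overlap between these groups and the others. The T2 libraries lay close together (257 ± 3.94, SD, n = 3), whereas T1 was split between 1 high and 2 low libraries (84.9 ± 62.2). The T2 minus T4 difference was 3.42 (SE 0.38, limma adjusted p = 1.1e-05), in a comparison in which 4.32% of tested genes were called higher and 3.34% lower. The LN change minus the HN change was 0.45 (SE 0.53, 95% interval -0.66 to 1.57, limma adjusted p = 0.773). No gene at all was called for this difference of changes (0%).

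The order of GUN4 levels was T2, T3, T1, T4 at both nitrogen levels. From T1 to T2 GUN4 rose by 1.65 in HN (limma adjusted p = 0.00334) and by 1.82 in LN (adjusted p = 0.00251), where 26.4% and 20% of tested genes were called. The step between neighbours T2 and T3 was not called over all genes: T3 minus T2 was -1.27 in HN (adjusted p = 0.0859, 95% interval -2.06 to -0.48) and -1.01 in LN (adjusted p = 0.216, 95% interval -1.80 to -0.22), and 2.77% and 1.88% of tested genes were called in these comparisons. The HN difference was called without replicate 1 of LN at T1 (adjusted p = 0.0211), without replicate 3 of LN at T4 (adjusted p = 0.0355) and with array weights, and the LN difference with array weights (adjusted p = 0.0308). The neighbours T3 and T1 were not called either, with T3 minus T1 at 0.38 in HN (adjusted p = 0.462) and 0.81 in LN (adjusted p = 0.123). Without the high replicate 1 of LN at T1, the LN difference was 1.36 (adjusted p = 0.00487).

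From the end of light to the middle of dark GUN4 fell by 1.70 in HN (limma adjusted p = 0.00468) and fell by 2.41 in LN (adjusted p = 0.000385). In this step 18.4% of tested genes were called in HN and 13.1% in LN. From the middle to the end of the dark period, before any light, GUN4 rose by 1.31 in HN (adjusted p = 0.038) and by 1.60 in LN (adjusted p = 0.0117), against 7.79% and 7.49% of tested genes called. These rises within the night are the least firm of the called GUN4 changes. The HN call was lost under 7 alternatives: without any 1 of 5 libraries (adjusted p up to 0.148, without replicate 1 of HN at T1), with no filter (adjusted p = 0.0526) and with libraries scaled to a common sum of FPKM (0.996, adjusted p = 0.0727). The LN call was lost without replicate 1 of LN at T1 (1.05, adjusted p = 0.0522), without replicate 3 of LN at T4 (1.14, adjusted p = 0.0578) and with only the compared groups fitted (adjusted p = 0.278).

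The 2 GUN4 libraries that stood apart within their LN groups also stood apart in mesophyll markers. Replicate 1 of LN at T1, with 157 FPKM of GUN4, had a mesophyll sum of 63459 FPKM against 36459 and 38729 in the other T1 libraries of LN. Replicate 3 of LN at T4, with 11.7 FPKM of GUN4, had 17155 against 39291 and 49687. Without the antenna genes, whose own levels change over the day, the sums were 27099 against 16301 and 20518 at T1, and 13356 against 27538 and 28170 at T4. The long CHLH model moved likewise, with 525 FPKM against 263 and 283 at T1, and 59.4 against 203 and 276 at T4. The part of this in the GUN4 values was not tested. The fall from T2 to T4 in LN was 2.96 without that T4 library (limma adjusted p = 5.84e-05), so it was present without it.

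**Figure D2:**
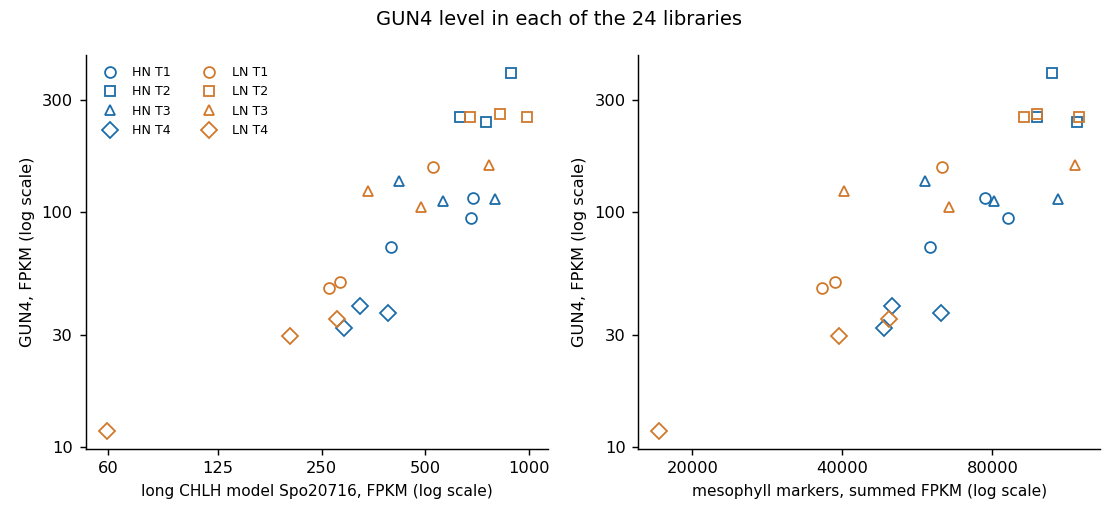
GUN4 level in each library (vertical axis, FPKM, log scale) against the long CHLH model Spo20716 (left, FPKM) and against the summed mesophyll markers (right, FPKM), both on log axes, with a symbol for each time and colour for nitrogen. The T2 squares sit at the top right, and replicate 3 of LN at T4 sits alone at the bottom left with 11.7 FPKM of GUN4, 59.4 FPKM of Spo20716 and 17155 FPKM of markers.

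The CHLH model Spo00253 in HN stood at 11.9, 15.0 and 8.02 FPKM at T1, at 7.51, 12.6 and 12.9 at T2, at 6.68, 9.42 and 11.2 at T3, and at 8.91, 8.48 and 8.36 at T4. In LN it stood at 11.3, 18.7 and 11.6 at T1, at 9.17, 10.9 and 6.43 at T2, at 9.48, 7.58 and 4.93 at T3, and at 5.10, 7.75 and 9.35 at T4. All 4 times overlapped in HN, and in LN the T1 libraries lay above all the others. The change over the 4 times was not called in HN (limma adjusted p = 0.606) or in LN (adjusted p = 0.0764).

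Group means of Spo00253 were highest at T1, at 11.6 ± 3.47 in HN and 13.8 ± 4.17 in LN (SD, n = 3). Their order was T1, T2, T3, T4 in HN and T1, T2, T4, T3 in LN. In LN, Spo00253 fell by 0.84 from T1 to T3 (SE 0.28, limma adjusted p = 0.0345), and 12.2% of tested genes were called higher and 13.8% lower in that comparison. The call was lost without replicate 2 of LN at T1 (-0.62, adjusted p = 0.174), without replicate 3 of LN at T3 (-0.61, adjusted p = 0.159) and without replicate 2 of LN at T3 (-0.88, adjusted p = 0.0579). In HN the same difference was -0.31 (adjusted p = 0.425), where 15.7% of tested genes were called higher and 17.1% lower, and the LN minus HN difference of the changes was -0.53 (SE 0.40, adjusted p = 0.706). T2 minus T4 was 0.29 in HN (95% interval -0.30 to 0.88, adjusted p = 0.494) and 0.23 in LN (95% interval -0.36 to 0.82, adjusted p = 0.674). No neighbouring pair in either order of means was called.

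The long CHLH model Spo20716 in HN stood at 687, 399 and 676 FPKM at T1, at 631, 885 and 749 at T2, at 562, 796 and 419 at T3, and at 290, 389 and 324 at T4. In LN it stood at 525, 263 and 283 at T1, at 820, 983 and 674 at T2, at 340, 487 and 766 at T3, and at 203, 276 and 59.4 at T4. The T4 libraries were the lowest in HN and lay below T2 and T3 in LN, while T1 and T4 overlapped in LN. The change over the 4 times was called in LN (limma adjusted p = 0.00195) and not in HN (adjusted p = 0.153). In HN it was called with array weights (adjusted p = 0.0196), with only the compared groups fitted (adjusted p = 0.022) and without replicate 3 of LN at T4 (adjusted p = 0.0376). From T4 to T2 the model rose by 2.44 in LN (SE 0.43, adjusted p = 0.00184), and in HN the difference was 1.17 (SE 0.43, adjusted p = 0.0561). The HN difference was called under 6 of 33 alternatives. Among them were array weights (adjusted p = 0.0126), a fit without replicate 3 of LN at T4 (adjusted p = 0.0132) and a fit of only the compared groups (adjusted p = 0.0103). With only the compared groups fitted, the LN call was lost (adjusted p = 0.068). The LN change minus the HN change was 1.27 (95% interval -0.01 to 2.55, adjusted p = 0.451), so the changes were not shown to differ between nitrogen levels.

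From T3 to T4 Spo20716 fell by 1.74 in LN (adjusted p = 0.0125), a call lost without replicate 3 of LN at T4 (-1.08, adjusted p = 0.0513). From T1 to T2 in LN it rose by 1.26 (adjusted p = 0.0457), a call that was lost without any 1 of 15 libraries and with the replicate block (adjusted p = 0.0532). The GUN4 level over that of Spo20716 in the same library does not depend on scaling. This ratio lay between 0.325 and 0.446 at T2 and between 0.0959 and 0.123 at T4 in HN, and between 0.259 and 0.379 at T2 and between 0.127 and 0.197 at T4 in LN. The T2 and T4 libraries did not overlap at either nitrogen level, so GUN4 was higher relative to the long CHLH model in the middle of light than in the middle of dark in all libraries.

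NYC1 in HN stood at 13.7, 16.7 and 15.9 FPKM at T1, at 30.6, 48.9 and 50.3 at T2, at 177, 171 and 101 at T3, and at 31.8, 38.0 and 30.8 at T4. The T3 libraries lay above and the T1 libraries below all others, while T2 and T4 overlapped. In means this is 150 ± 42.2 (SD, n = 3) at the end of light against 15.4 ± 1.55 at the end of dark. NYC1 rose by 3.16 from T1 to T3 in HN (SE 0.27, limma adjusted p = 7.86e-08).

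NYC1 in LN stood at 27.9, 22.9 and 34.4 FPKM at T1, at 34.0, 51.4 and 47.8 at T2, at 92.8, 168 and 172 at T3, and at 33.1, 50.1 and 47.8 at T4. The T3 libraries were again the highest, T2 and T4 overlapped almost fully, and the highest T1 library reached just into the lower edge of both. The T3 mean was 144 ± 44.7 and the T1 mean 28.4 ± 5.74 (SD, n = 3). NYC1 rose by 2.27 from T1 to T3 in LN (SE 0.27, limma adjusted p = 4.89e-06). The LN change minus the HN change was -0.89 (SE 0.38, 95% interval -1.67 to -0.10), which did not pass over all genes (limma adjusted p = 0.402), and 0.138% of tested genes were called there.

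The order of NYC1 means was T3, T2, T4, T1 at both nitrogen levels. NYC1 rose between the middle and the end of light, by 1.76 in HN (limma adjusted p = 0.000539) and 1.65 in LN (adjusted p = 0.00129). The LN call was lost when only the compared groups were fitted (adjusted p = 0.0784). T2 and T4 did not differ beyond their spread, with T2 minus T4 at 0.33 in HN (95% interval -0.23 to 0.89, adjusted p = 0.398) and 0.02 in LN (95% interval -0.53 to 0.58, adjusted p = 0.973). With libraries scaled to a common sum of FPKM, these values were -0.08 and -0.22. Under that scaling the median of all genes in T2 minus T4 was -0.343 in HN and -0.215 in LN.

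After the light period NYC1 fell by 2.09 in HN (adjusted p = 5.39e-05) and by 1.67 in LN (adjusted p = 0.000472) to the middle of dark. At the end of dark NYC1 stood 1.07 below its level in the middle of dark in HN (adjusted p = 0.0179). This call was lost without replicate 1 of HN at T1 (adjusted p = 0.0794) or replicate 2 of HN at T4 (adjusted p = 0.0953). In LN that difference was -0.60 (adjusted p = 0.215). From T1 to T2 NYC1 rose by 1.40 in HN (adjusted p = 0.000855), and in LN the difference was 0.62 (adjusted p = 0.102). In T1 minus T4 in HN, GUN4 thus stood at 1.31 and NYC1 at -1.07. Both of these calls between dark times depend on single libraries, as given above for each gene.

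Over the 4 times together, GUN4 changed in HN (limma adjusted p = 6.53e-05) and in LN (adjusted p = 1.47e-05), and so did NYC1 (adjusted p = 5.85e-07 and 2.43e-05). Of all tested genes, 38.9% changed with time in HN and 28.7% in LN, so a change over the day as such was common. These 4 calls held under all 33 alternatives that were run.

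**Figure D3:**
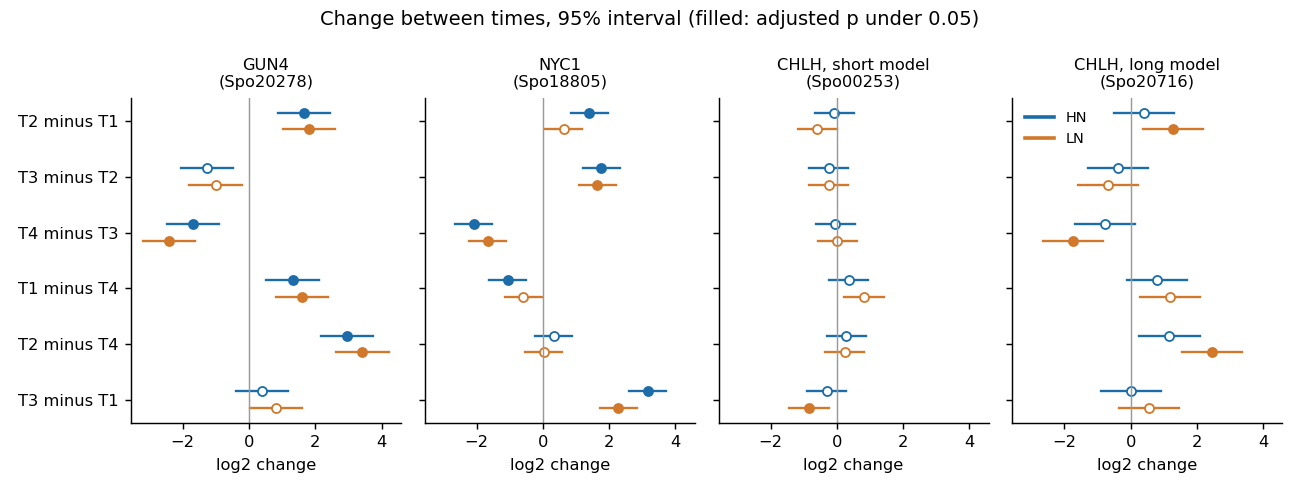
Log2 change between pairs of times (horizontal axis) with its 95% interval, for HN in blue and LN in orange; filled circles mark an adjusted p under 0.05. GUN4 had its largest changes in T2 minus T4 (2.97 and 3.42) and NYC1 in T3 minus T1 (3.16 and 2.27), while Spo00253 had 1 filled circle, at -0.84.

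The level of NYC1 over that of GUN4 in the same library, which does not depend on scaling, passed from well under 1 to about 1 or more within the day. In HN it lay between 0.119 and 0.235 at T1 and between 0.120 and 0.207 at T2, and then between 0.744 and 1.59 at T3 and between 0.770 and 1.02 at T4. In LN it lay between 0.178 and 0.683 at T1, between 0.130 and 0.202 at T2, between 0.756 and 1.59 at T3 and between 1.12 and 4.09 at T4. The highest value belongs to replicate 3 of LN at T4, in which GUN4 was lowest. At both nitrogen levels the T3 and T4 libraries lay above all T1 and T2 libraries.

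**Figure D4:**
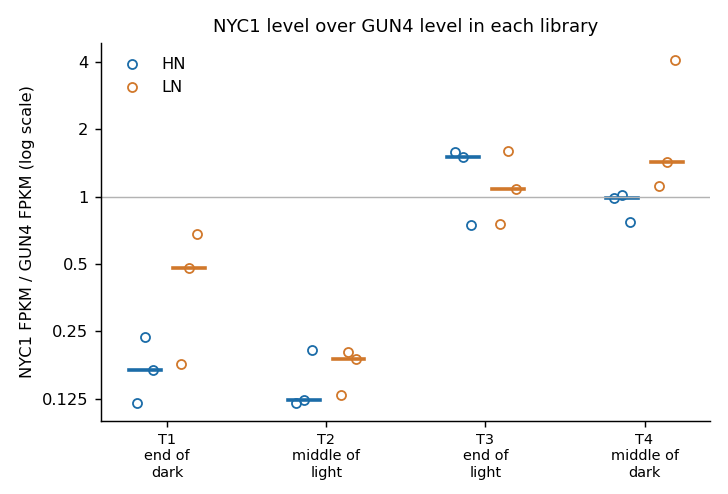
NYC1 FPKM divided by GUN4 FPKM in each library (circles, log scale) with the group median (bar), by time of day, for HN in blue and LN in orange. The medians were 0.168 and 0.481 at T1, 0.124 and 0.187 at T2, 1.50 and 1.08 at T3, and 0.991 and 1.42 at T4 for HN and LN.

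No nitrogen difference of the 3 genes was called, at any time or averaged over the times. The averaged LN minus HN values were -0.26 for GUN4 (95% interval -0.66 to 0.13, limma adjusted p = 0.353), -0.14 for Spo00253 (95% interval -0.44 to 0.16, adjusted p = 0.529) and 0.29 for NYC1 (95% interval 0.01 to 0.57, adjusted p = 0.135). Of all tested genes 7.92% were called higher and 8.62% lower in LN. The NYC1 difference was called with array weights (0.35, adjusted p = 0.0412). The long CHLH model stood at -0.49 (95% interval -0.94 to -0.03, adjusted p = 0.126). Its widest gap was at T4, at -1.14 (95% interval -2.05 to -0.24, limma adjusted p = 0.185), where the LN libraries (59.4 to 276 FPKM) lay below those of HN (290 to 389 FPKM). Without replicate 3 of LN at T4 this gap was -0.49 (limma adjusted p = 0.75), smaller than the gap of -0.75 at T1.

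Among GUN4, Spo00253 and NYC1, the widest gap between nitrogen levels was that of NYC1 at the end of dark, where the libraries of LN (22.9 to 34.4 FPKM) and HN (13.7 to 16.7 FPKM) did not overlap. LN minus HN was 0.83 (SE 0.27, 95% interval 0.27 to 1.38), just short of a call (limma adjusted p = 0.0547), while 9.97% of tested genes were called at this time. It was called under 9 of 33 alternatives, among them voom on whole fragments (adjusted p = 0.043) and the replicate block (adjusted p = 0.0409). Markers of some other cell types moved in the same comparison. The 8 epidermis models summed to 104 to 135 FPKM in LN against 41.9 to 59.97 in HN at T1, without overlap, and the 4 xylem models to 15.1 to 33.6 against 37.1 to 45.7. Mesophyll markers without antenna genes summed to a median of 20518 FPKM in LN and 36478 in HN. Their libraries overlapped, with 16301 to 27099 in LN and 22888 to 37374 in HN. The phloem sums at T1 overlapped as well, and the guard cell sums were lower in LN without overlap. The part of these marker differences in the NYC1 gap was not tested. The NYC1 values at the other times were 0.05 at T2, -0.06 at T3 and 0.36 at T4.

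GUN4 differed by -0.34 at T1, -0.17 at T2, 0.08 at T3 and -0.63 at T4 between LN and HN, with no call (lowest limma adjusted p = 0.396). Spo00253 differed by 0.24, -0.28, -0.29 and -0.22 in the same order (lowest adjusted p = 0.639). Without replicate 3 of LN at T4, the GUN4 difference at T4 was -0.16 (limma adjusted p = 0.939). At T2 and T3, 0.00552% of tested genes were called at each time, and at T4 0.37%. The interaction of nitrogen with time was not called for GUN4 (adjusted p = 0.855), Spo00253 (adjusted p = 0.815), NYC1 (adjusted p = 0.558) or Spo20716 (adjusted p = 0.633), and it was called for 0.0828% of tested genes.

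The other genes of the pathway put these values in context. Chlorophyll synthesis, from glutamyl-tRNA reductase to chlorophyll, was represented by 33 models, of which 27 were tested, GUN4, Spo00253 and Spo20716 among them. In T2 minus T4, 3 of the 27 rose and none fell in HN, and 8 rose and none fell in LN. Over all tested genes, 12.5% were called higher and 11.1% lower in HN, against 4.32% and 3.34% in LN, so the HN count of risers is near the share over all genes. The HN risers were GUN4, CHLP (geranylgeranyl reductase, which makes the phytol tail, Spo08176, 1.41) and PORA (protochlorophyllide reductase, the light-driven step, Spo19511, 1.97). The list median was 0.04 in HN and 0.38 in LN, beside 0.00 and 0.00 over all tested genes. With a common sum of FPKM, HN had 11 calls, counted in either direction. Under that scaling the median of all tested genes in HN was -0.343, and the calls were not split into rises and falls. The absence of falls is therefore given for the deposited scaling alone. With only the compared groups fitted, LN had 2 calls in either direction.

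Within that list, GUN4 had the highest T2 minus T4 value in HN and the second highest in LN, after PORA Spo18320 (4.78). None of the 11 tested models of the early steps was called in either comparison. Their medians were -0.39 in HN and 0.09 in LN. HEMA1 (glutamyl-tRNA reductase, Spo19113), the enzyme that commits glutamate to the pathway, stood at 0.22 in HN (limma adjusted p = 0.688) and 1.11 in LN (adjusted p = 0.0501). Of the magnesium branch, 8 of 16 tested models rose in LN, with values from 1.54 for CAO (chlorophyllide a oxygenase, which makes chlorophyll b, Spo23714) to 4.78. CRD1, the cyclase that closes the isocyclic ring, rose by 2.06 (Spo00803) and 2.12 (Spo05339).

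Neither partner subunit of the chelatase was called in T2 minus T4. CHLI (Spo30034) stood at -0.53 in HN (limma adjusted p = 0.202) and 0.46 in LN (adjusted p = 0.362), and CHLD (Spo11990) at -0.17 (adjusted p = 0.611) and 0.02 (adjusted p = 0.971). CHLM, the methyltransferase of the next step (Spo05699), stood at 0.13 and 0.38 without a call. From T1 to T3 it rose by 0.79 at both nitrogen levels (adjusted p = 0.0419 in HN and 0.0484 in LN). The difference between GUN4 and these subunits was itself not tested.

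In T3 minus T1, the synthesis genes called in HN were 5 that rose and 1 that fell. In LN, 3 rose and 1 fell. Over all tested genes, 15.7% were called higher and 17.1% lower in HN, against 12.2% and 13.8% in LN, so the counts of risers lie near those shares. Both PORA models rose in HN (4.42 for Spo18320 and 1.22 for Spo19511), as did DCUP (uroporphyrinogen decarboxylase, Spo02068, 1.50) and HEMB (Spo23717, 1.01), while HEMA1 fell by 1.08. In LN the gene that fell was Spo00253. The HN total of 6 was 3 without replicate 2 of HN at T1 and 12 with array weights or only the compared groups. Of 3 tested regulators, 1 rose in HN in T3 minus T1 (ycf54, Spo20640, 1.11, limma adjusted p = 0.00366). Of 4 tested heme branch models, 1 rose there (HO1, heme oxygenase 1, Spo26853, 0.75, adjusted p = 0.0245). Neither list had a call in LN. In T2 minus T4 neither list had a call at either nitrogen level. In that comparison 12.5% of tested genes were called higher and 11.1% lower in HN, and 4.32% and 3.34% in LN.

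Averaged over the times, 7 of the 27 synthesis genes were lower in LN than in HN and none was higher, beside 8.62% lower and 7.92% higher over all tested genes. They were HEMA1 (-0.53), the CRD1 models (-0.71 and -0.64), CHLP Spo08176 (-0.68), PORA Spo18320 (-1.41), CAO (-0.76) and DVR (divinyl chlorophyllide reductase, Spo25660, -0.46). GUN4, Spo00253 and Spo20716, none of which was called, also stood below 0. The total called in either direction, 7 here, was 3 or 4 without any 1 of 11 libraries. The median of the 27 genes was -0.11.

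NYC1 belongs to a chlorophyll breakdown list of 17 models, of which 13 were tested. In T3 minus T1 the members moved in both directions: in HN 3 rose and 5 fell, in LN 1 rose and 4 fell, with medians of -0.22 and -0.08. Beside the shares over all tested genes given above (15.7% and 17.1% in HN, 12.2% and 13.8% in LN), the counts of risers are near the background. The genes that fell, 5 of 13 in HN and 4 of 13 in LN, lie above the shares of 17.1% and 13.8%. Whether the list as a whole differed from all genes was not tested. NYC1 had the highest value of the 13 at both nitrogen levels and was the 1 member that rose in LN. PAO (pheophorbide a oxygenase, which opens the ring, Spo20588) rose by 1.204 and RCCR (the next reductase, Spo22917) by 0.66 in HN. NOL (Spo04719), the chlorophyll b reductase known to act with NYC1 in rice, fell by 0.59 in HN (limma adjusted p = 0.00822) and by 0.57 in LN (adjusted p = 0.0128), opposite to NYC1.

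SGR (the STAY-GREEN magnesium dechelatase, Spo26879), which acts on chlorophyll a, fell by 1.88 in HN and 2.28 in LN from T1 to T3. The chlorophyllase model Spo26895 fell by 2.68 in HN (limma adjusted p = 9.97e-06) and fell by 2.94 in LN (adjusted p = 4.36e-06). Its mean went from 97.0 ± 24.8 FPKM at T1 to 14.1 ± 2.22 at T3 in HN, and from 43.9 ± 11.05 to 5.05 ± 2.26 in LN (SD, n = 3), the reverse of the NYC1 direction. HCAR (Spo22960), which takes up the product of NYC1, stood at 0.08 in HN and -0.11 in LN in T2 minus T4 without a call.

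In T2 minus T4, where NYC1 was not called, 5 breakdown genes rose in HN and 1 fell, where 12.5% of all tested genes rose and 11.1% fell. TIC55 (Spo07856) rose by 1.71, PPH (pheophytinase, Spo19983) by 1.53, PAO by 1.86, RCCR by 1.15 and SGR by 2.36, and CYP89A9 (Spo00845), which modifies late products, fell by 0.69. In LN 1 rose (RCCR, 1.02) and 1 fell (CYP89A9, -0.70), where 4.32% and 3.34% of all tested genes did, and with only the compared groups fitted none was called. Averaged over the times, 3 of the 13 were higher in LN: TIC55 (0.53), PAO (0.69) and SGR (0.89). Another 2, SGRL (Spo21581, -0.60) and Spo26895 (-0.78), were lower. Over all tested genes 7.92% were called higher and 8.62% lower. The interaction of nitrogen with time was called for none of the synthesis, breakdown or antenna genes. Over all tested genes it was called for 0.0828%, so lists of this size would seldom hold a call.

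**Figure D5:**
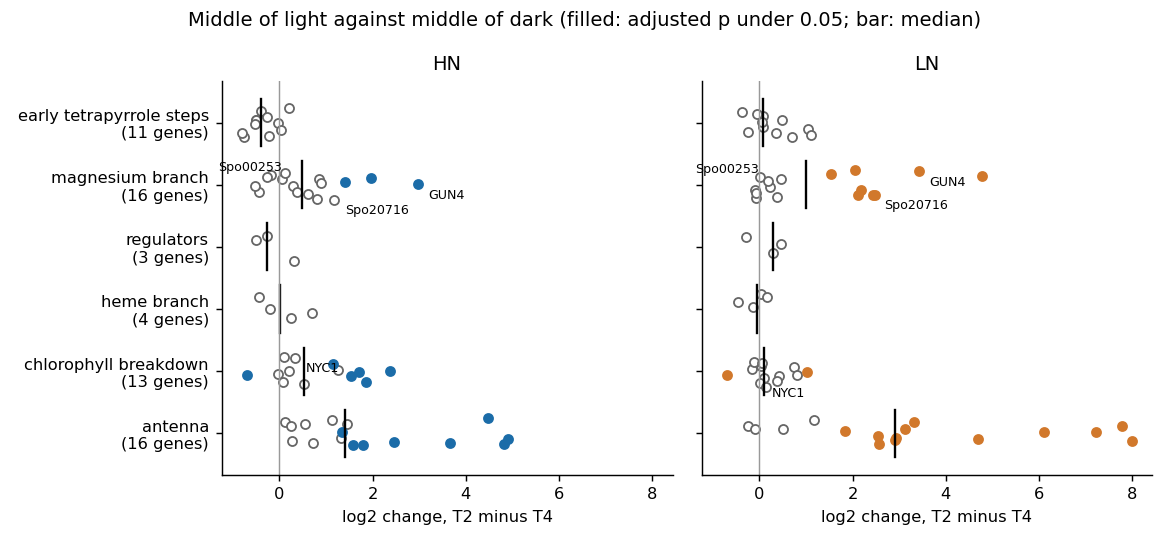
Log2 change in T2 minus T4 (horizontal axis) for each tested gene of 6 lists, in HN (left) and LN (right); filled circles mark an adjusted p under 0.05 and the black bars the list medians. GUN4 lies at 2.97 and 3.42 among the magnesium branch genes, the early steps hold no filled circle, and the antenna genes have medians of 1.40 in HN and 2.92 in LN.

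The genes whose pattern was most like that of each gene were named by Pearson correlation of log2(FPKM + 1) over the 24 libraries, as a description. Library composition and the time of day are shared by all values. For GUN4 the 5 closest were 4 antenna genes and a plastid aldolase. They were CP24 (Spo25138, r = 0.945), FBA2 (fructose-bisphosphate aldolase, Spo18028, r = 0.941), LHCB3 (Spo10927, r = 0.937), and the chlorophyll a-b binding proteins Spo14399 (r = 0.935) and Spo03025 (r = 0.926). CP24 went from 120 FPKM at T4 to 2640 at T2 in HN in mean values, and from 52.5 to 2589 in LN. Values of single antenna models are uncertain, since their sequences are close to each other.

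Of the 16 antenna models, all tested, 8 rose from T4 to T2 in HN and 12 in LN, and none fell, beside 12.5% and 4.32% of all tested genes that rose. The long CHLH model had r = 0.885 with GUN4 over the libraries, and 0.780 after the group means were taken out. The 2 levels thus also varied together among libraries of 1 group. The part of library composition in this was not tested. The 5 genes closest to Spo20716 were all antenna models, with r between 0.947 and 0.957. After the group means were taken out, these values lay between 0.879 and 0.951. Spo00253, in contrast, had r = 0.07 with GUN4 and r = -0.00 with Spo20716, and r = -0.41 with Spo20716 after the group means were taken out. Its closest genes were less close, from MAP70.1 (a microtubule-associated protein, Spo05148, r = 0.740) to Ylpm1 (Spo24401, r = 0.711).

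For NYC1 the closest genes were PTB (a polypyrimidine tract-binding protein, Spo09573, r = 0.949), UBC2 (a ubiquitin-conjugating enzyme, Spo24388, r = 0.949), a DnaJ homolog (Spo24503, r = 0.940), OTU12 (a deubiquitinating enzyme, Spo24444, r = 0.937) and a model named after a ribosomal protein, RPS7 (Spo04605, r = 0.936). None of these 5 belongs to the chlorophyll lists. UBC2 went from 20.05 FPKM at T1 to 127 at T3 in HN and from 27.7 to 126 in LN, with T2 means of 43.6 and 37.2. GUN4 and NYC1 themselves had r = 0.193 over the libraries and -0.07 after the group means were taken out.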

How the data were processed

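Poly-A RNA of 24 leaf libraries was sequenced from directional dUTP libraries, per the labels' protocols. Per the submitters' processing notes, the authors' tools included DESeq2 (version 1.20.0), RSEM and HISAT2, without roles. Per the file headers, the authors deposited FPKM for each gene, a unit of fragments by listed gene length and library size. Times the length, 100.0% of the values above 0 were whole multiples of 1 step per library (tolerance 0.01), which returned 18369094 to 25252705 whole fragments per library. The steps followed median-of-ratios size factors (largest deviation 0.0079%). The values were thus scaled by these factors and not by the total of fragments, and their sums per library ran from 653215 to 1008934. The sources used here do not give how reads shared by similar models were counted, or whether strand was used.

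The 18110 of 25494 genes that reached 1 FPKM in 3 or more libraries were tested in R version 4.3.3. The limma package (version 3.58.1) fitted the mean of each of the 8 groups to log2(FPKM + 1). Its trended, moderated variances rest on 16 residual degrees of freedom. Calls are at a Benjamini-Hochberg adjusted p under 0.05 over all tested genes, and intervals are 95% intervals of the same fit. The scripts were tested on simulated data. The table holds 1 blank line, and 0 IDs matched the reference gene table, so names and coordinates are those of the deposited table (Sp75, per the series title).

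The genes described and the gene lists, picked by protein name, were chosen with earlier results of these data known. Beyond the 3 genes, the text names list members, neighbouring genes and, for each gene, the 5 named genes of highest Pearson correlation among those averaging 5 FPKM or more. The model Spo20716 was described in full after its values were seen. The fit was repeated with array weights, robust moderation, a replicate block, only the compared groups, each library left out, libraries scaled to a common FPKM sum, a pseudocount of 0.1, no filter or a filter on mean FPKM (5), and, chosen after seeing the data, voom on whole fragments. Same-number correlations of deviations were all over 0.1 in 1 of 16 pairs of groups (mean correlations -0.163 to 0.232). That pair was HN and LN at T1 (0.145, 0.414 and 0.136), so the blocked value is given beside the NYC1 difference there; elsewhere the numbers did not pair the libraries. Replicate libraries were distinct, with a chi-square of at least 27.7 per degree of freedom between any pair.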

Additional observations from a re-analysis of the deposited data

How the results depend on the processing

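The calls of GUN4 and NYC1 over the 4 times, of GUN4 in T2 minus T4 and of NYC1 in T3 minus T1 kept direction and call under all alternatives run. The fall of Spo00253 from T1 to T3 in LN was not called with a common sum of FPKM (-0.91), array weights (-0.64) or only the compared groups (-0.84), and lay between -1.02 and -0.61 with single libraries left out. T3 minus T1 of GUN4 in LN lay between 0.51 and 1.36 with single libraries left out. The averaged nitrogen difference of NYC1 was 0.35, and called, with array weights. T2 minus T4 changed sign with a common sum for NYC1 (-0.083 in HN, -0.22 in LN) and for Spo00253 in HN (-0.095), all uncalled, and for NYC1 in LN it lay between -0.16 and 0.20 with libraries left out.

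Other values that changed sign were uncalled. With array weights, GUN4 LN minus HN at T3 was -0.042, Spo00253 T4 minus T3 in LN -0.13 and Spo20716 T3 minus T1 in HN -0.050. With a common sum, Spo00253 T4 minus T3 in HN was 0.19 and its LN minus HN difference of T2 minus T4 0.10. The other sign changes came with 1 library left out, as ranges: GUN4 LN minus HN at T2 -0.30 to 0.048, at T3 -0.076 to 0.22 and in the difference of T2 minus T4 -0.0094 to 0.75; Spo00253 T2 minus T1 in HN -0.29 to 0.16, T4 minus T3 in HN -0.24 to 0.10 and in LN -0.21 to 0.23, and the difference of T2 minus T4 -0.29 to 0.13; NYC1 LN minus HN at T2 -0.18 to 0.23 and at T3 -0.32 to 0.23; Spo20716 LN minus HN at T2 -0.0085 to 0.26 and at T3 -0.49 to 0.094, and T3 minus T1 in HN -0.25 to 0.23.

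The counts given next are of calls in either direction. Counts of synthesis genes in T2 minus T4 were 3 in HN (11 with a common sum, 7 with array weights or only the compared groups) and 8 in LN (2 with only the compared groups). In T3 minus T1 they were 6 in HN (12 with array weights or only the compared groups, 3 to 9 with libraries left out) and 4 in LN (2 with no filter, 1 with a common sum or only the compared groups, 1 to 6 with libraries left out). For nitrogen averaged over the times they were 7, and 3 to 7 with libraries left out. Counts of breakdown genes were 2 in T2 minus T4 in LN (4 with array weights, 0 with only the compared groups, 1 to 3 with libraries left out), 5 in T3 minus T1 in LN (3 with only the compared groups, 3 to 5 with libraries left out) and 5 averaged (9 with array weights). The causes were not tested.

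With the replicate block, NYC1 at T1 was called (adjusted p = 0.0409) and Spo20716 T2 minus T1 in LN was not (adjusted p = 0.0532); it changed no other call among these results. The planned edgeR test was not run, because the deposited unit is FPKM, and voom stood in its place.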
